A study of Mus musculus with 4 samples.

Results

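The genes described here encode the BH3-only proteins BIM (Bcl2l11), PUMA (Bbc3), NOXA (Pmaip1), BMF, BIK, BID and BAD and the pore-forming proteins BAX and BAK (Bak1). They were chosen by symbol in the array's probe annotation, and every probe with a detection p-value of at most 0.01 on at least 1 of the 4 arrays was read. Of these 9 genes, 8 had a named probe and 6 had a detected one, among 19057 genes on the array and 8674 with a detected probe, which are called the genes analysed. The cells were CL4188, a lymphoma line from FVB/N mice whose MYC transgene is switched off by doxycycline (DOX), grown in RPMI medium with serum and 2-mercaptoethanol. The control cells carried the empty retroviral vector MSCV, and the miR-17-92 cells carried MSCV with the microRNA cluster miR-17-92. Each was profiled without DOX (MYC on) and after 48 hours of DOX at a dose of 20 ng/ml (MYC off), so that all 4 groups share the line and its MYC transgene, and each group is 1 array of 1 culture. No ratio below therefore has a replicate check, no p-value is given, and 2-fold (log2 1) serves as a threshold of size only.

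The mitochondrial pathway of apoptosis is set by the balance of BCL2 family proteins. BH3-only proteins report stress, loss of growth factors or damage: they bind and neutralise the pro-survival members such as BCL2, BCL-XL and MCL1, and BIM, PUMA and BID can also activate BAX and BAK directly. Activated BAX and BAK permeabilise the outer mitochondrial membrane and release cytochrome c, which assembles the apoptosome and starts the caspase cascade. BIM and PUMA are the BH3-only proteins on which the deletion of lymphocytes most depends, and the Bcl2l11 mRNA is a reported target of miR-17-92, a cluster that MYC itself induces.

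The vector insert is known by its mature microRNAs, which are shown because their seeds, the bases with which a microRNA pairs with its targets, define which of them can act on the same sites. The sequences are those of RefSeq on mouse chromosome 14, plus strand, build GRCm38.p6, written 5′ to 3′ with bases 2 to 8, the seed, in capitals.
mmu-miR-17-5p: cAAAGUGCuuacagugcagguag
mmu-miR-18a-5p: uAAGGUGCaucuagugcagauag
mmu-miR-19a-3p: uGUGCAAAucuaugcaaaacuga
mmu-miR-20a-5p: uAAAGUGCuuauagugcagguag
mmu-miR-19b-3p: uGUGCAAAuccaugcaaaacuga
mmu-miR-92a-3p: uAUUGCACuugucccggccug
They lie in this order from chr14:115043684-115043706 (miR-17-5p) to chr14:115044476-115044496 (miR-92a-3p). miR-17-5p and miR-20a-5p share 1 seed and miR-19a-3p and miR-19b-3p share another, while those of miR-18a-5p and miR-92a-3p each stand alone. The arrays read mRNA, so the level of these microRNAs was not measured.

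Of 45281 probes, 13251 and 13656 were detected on the arrays without DOX (control cells first) and 14864 and 14658 on those with DOX. Precision is limited by this number of arrays. Of 2 probes for mouse Myc, 1 was detected on both arrays without DOX, at log2 8.80 in the control cells and 8.73 in the miR-17-92 cells, and undetected on both arrays with DOX, the order that the labels give. The other was undetected on all 4 arrays. The species of the MYC transgene is not given in the labels, so these probes may not read it. Both arrays without DOX were on 1 slide and both arrays with DOX on another, and within a line the effect of DOX cannot be told apart from that of the slide. The lymphoid label was checked against markers: 7 of 10 T-cell markers on the array were detected without DOX and 9 of 10 with DOX in both lines, among them Cd3e and Thy1, and no B-cell, NK-cell or erythroid marker was detected. Of 23 markers of other lineages, 1 was detected without DOX (Pecam1) and 2 with DOX (Pecam1 and Itgam). The summed normalized level of the 9 T-cell markers detected on any array was 115239 and 111712 without DOX and 223937 and 174536 with DOX. That of Pecam1 and Itgam was 503.2 and 431.4 without DOX and 1928 and 1170 with DOX. Both sums moved with DOX beside the ratios below, and their part in those ratios was not tested. In bulk RNA, fewer cells with a transcript and less of it per cell cannot be told apart.

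**Figure D1:**
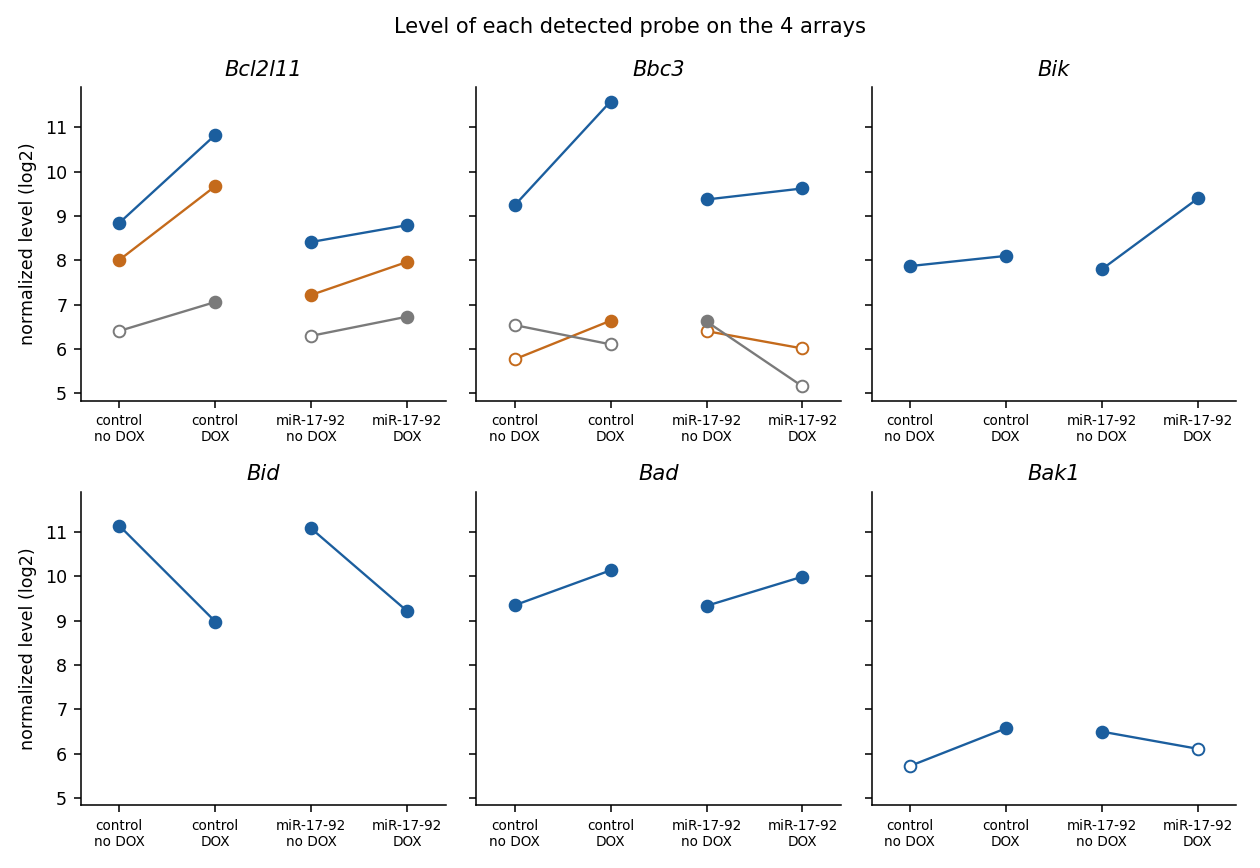
Normalized level (log2) of every detected probe of the 6 genes analysed, on each of the 4 arrays (1 array per group). Filled circles are arrays on which the probe was detected at p of at most 0.01 and open circles those on which it was not; blue marks each gene's brightest detected probe, orange and grey its other probes, and lines join the arrays without and with DOX of 1 line. The blue and orange Bcl2l11 probes and the blue Bbc3 probe climb past 2-fold with DOX in the control cells and less than 2-fold in the miR-17-92 cells.

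Bcl2l11, the gene of BIM, was past 2-fold higher with DOX in the control cells and stayed within 2-fold in the miR-17-92 cells. Its brightest probe, designed on transcript NM_207680 per the annotation, read log2 8.84 in the control cells without DOX, 8.41 in the miR-17-92 cells without DOX, 10.83 in the control cells with DOX and 8.79 in the miR-17-92 cells with DOX. The raw bead intensities behind these levels were 522.0, 443.6, 1951 and 568.2 in the same order. The control array with DOX thus stood alone above the other 3, which lay within log2 0.43 of each other. With DOX the probe was 3.95-fold higher in the control cells (log2 1.98) and 1.30-fold higher in the miR-17-92 cells (log2 0.38). In the control cells 5.55% of all genes analysed had a higher ratio, and in the miR-17-92 cells 35.9% did.

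The other detected Bcl2l11 probes differed from it in size. The annotation gives 1 transcript record per probe and does not say whether other transcripts carry the same sequence. A probe designed on NM_009754 was detected on all 4 arrays, at log2 8.01 and 7.22 without DOX (control cells first) and 9.67 and 7.97 with DOX. Its level with DOX was 3.17-fold that without in the control cells (log2 1.66) and 1.68-fold in the miR-17-92 cells (log2 0.75), so it moved the same way as the brightest probe in both lines, with a narrower gap between them. Another probe, again designed on NM_207680, was dim: log2 6.41 and 6.30 without DOX, undetected, and 7.06 and 6.73 with DOX, detected. Its rise with DOX was at least 1.36-fold for the control line and at least 1.18-fold for the miR-17-92 line. These bounds do not separate the lines, and their direction was fixed, since the probe was read through its DOX arrays. The remaining probe, also on NM_207680, was not detected on any array, with detection p-values from 0.0566 to 0.612. With DOX the miR-17-92 cells were 4.10-fold lower than the control cells by the brightest probe and 1.26-fold lower by the dim NM_207680 probe. Probes of 1 transcript record thus gave different sizes of ratio there, and levels are not compared between probes.

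Bbc3, the gene of PUMA, a BH3-only protein that p53 and forkhead factors are known to induce, had the largest rise of the 6 genes in the control cells. Its brightest probe read log2 9.24 and 9.37 without DOX (control cells first) and 11.58 and 9.62 with DOX, from raw intensities of 658.9, 755.9, 3051 and 930.1. As for Bcl2l11, the control array with DOX stood above the other 3. The rise with DOX was 5.08-fold in the control cells (log2 2.34), where 3.56% of genes analysed had a higher ratio, and 1.19-fold in the miR-17-92 cells (log2 0.25). The 2 further Bbc3 probes lay near the detection limit, and each was detected on 1 array. One read log2 5.77 and 6.40 without DOX and 6.64 and 6.01 with DOX, was detected in the control cells with DOX alone, and exceeded its level without DOX by at least 1.01-fold. The other read log2 6.54 and 6.62 without DOX and 6.11 and 5.16 with DOX, was detected in the miR-17-92 cells without DOX alone, and its level there fell at least 1.34-fold with DOX. Each dim probe was read through the array on which it was detected, which fixed the direction of its bound. The rise of Bbc3 with DOX in the control cells thus rests on 1 bright probe.

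Bid encodes a BH3-only protein that caspase-8 cleaves and so links death receptors to mitochondria, and it moved the opposite way to Bcl2l11 and Bbc3. Its probe read log2 11.14 and 11.08 without DOX (control cells first) and 8.98 and 9.21 with DOX, from raw intensities of 2309, 2311, 658.9 and 728.0. Both arrays with DOX lay well below both arrays without it, and within each pair the lines nearly coincided. Bid fell 4.47-fold with DOX in the control cells (log2 -2.16) and 3.64-fold in the miR-17-92 cells (log2 -1.86). A lower ratio was seen for 4.2% of genes analysed in the control cells and 4.13% in the miR-17-92 cells. The other Bid probe was not detected, with p-values from 0.0278 to 0.0919.

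Bik and Bad encode sensitizers, BH3-only proteins that act mainly by occupying the pro-survival members. Bik read log2 7.87 and 7.80 without DOX (control cells first) and 8.10 and 9.40 with DOX, from raw intensities of 312.0, 331.9, 411.1 and 810.4. Here the miR-17-92 array with DOX stood alone above the other 3. The ratio with DOX was 1.17-fold in the control cells (log2 0.23) and 3.03-fold in the miR-17-92 cells (log2 1.60), a rise that 5.99% of genes analysed exceeded. Bad, whose protein is held inactive by phosphorylation and 14-3-3 proteins, read log2 9.35 and 9.33 without DOX and 10.13 and 9.99 with DOX. Its ratios with DOX were 1.73-fold in the control cells (log2 0.79) and 1.58-fold in the miR-17-92 cells (log2 0.66), both under 2-fold and nearly equal in the lines.

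NOXA and BMF could not be read on these arrays. The 3 probes of Pmaip1, whose product binds MCL1, had detection p-values from 0.144 to 0.955, and the 1 probe of Bmf, whose product is sequestered at the actin cytoskeleton, from 0.112 to 0.768. These probes set no limit on change below the detection threshold.

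Among the pore formers, Bak1 was at the limit of detection and Bax had no probe named in the annotation and is not analysed here. The Bak1 probe read log2 5.72 (undetected) in the control cells and 6.50 (detected) in the miR-17-92 cells, both without DOX. After DOX it read 6.57 (detected) in the control cells and 6.11 (undetected) in the miR-17-92 cells. No fold is given for the control cells, because the lowest detected signal on the array without DOX lay above the Bak1 level with DOX, and for the miR-17-92 cells the drop with DOX was at least 1.23-fold. These values set no upper limit on its change.

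With MYC off, the control cells had Bbc3 and Bcl2l11 past 2-fold higher and Bid past 2-fold lower, with Bik, Bad and the measured ratio of Bak1, undetected without DOX, inside 2-fold. That is 2 of 6 members at least 2-fold higher, where 19.9% of all genes analysed were, and 1 of 6 at least 2-fold lower, where 18% were. The median log2 ratio of the 6 members was 0.82, against 0.06 over all genes analysed. With so many genes past 2-fold in both directions, these counts say little about the members.

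In the miR-17-92 cells the members past 2-fold with DOX were Bik and, as in the control cells, Bid. Bik was at least 2-fold higher, 1 of 6 members against 14.8% of all genes analysed, and Bid at least 2-fold lower, 1 of 6 against 12.8%. Bcl2l11, Bbc3 and Bad stayed inside 2-fold, as did the measured ratio of Bak1, which was undetected with DOX. The median of the members was log2 0.31, against 0.09 over all genes.

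**Figure D2:**
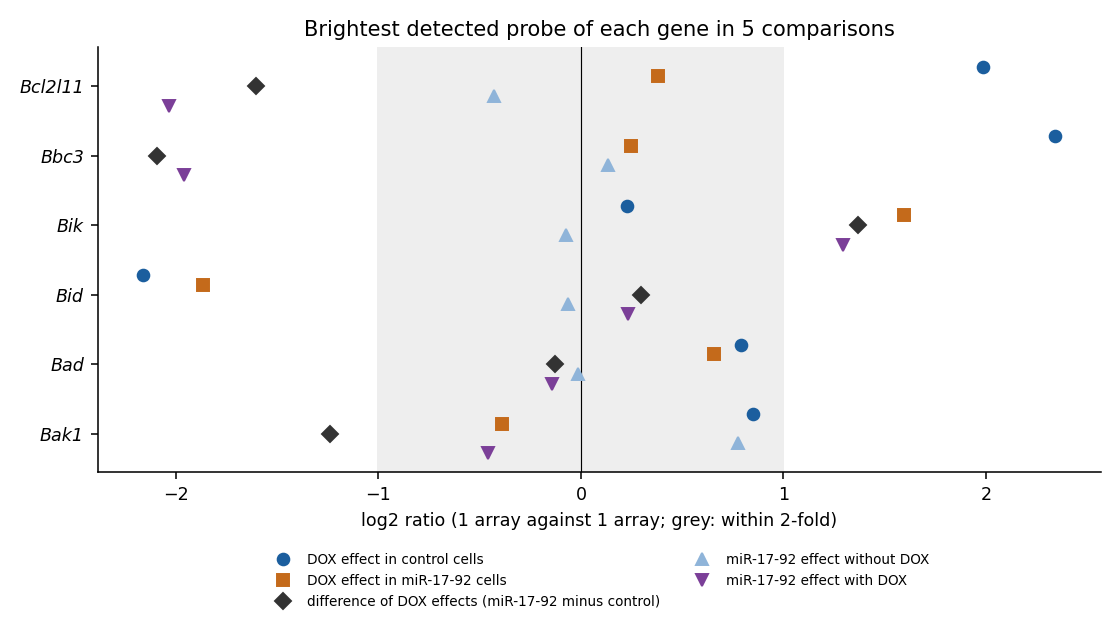
Log2 ratio of the brightest detected probe of each of the 6 genes in the 5 comparisons, each 1 array against 1 array or, for black diamonds, the difference of the 2 DOX effects; the grey band is the range within 2-fold. Bcl2l11 and Bbc3 have their DOX effect in the control cells (blue circles) at 1.98 and 2.34 and in the miR-17-92 cells (orange squares) at 0.38 and 0.25, while both DOX effects of Bid lie at or below -1.86. Bak1 was undetected on 2 arrays.

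The difference of the 2 DOX effects asks how the response to loss of MYC differs when miR-17-92 is carried by the vector, and a slide effect shared by both lines cancels in it. Bbc3 had a difference of log2 -2.09, miR-17-92 minus control, which put it at rank 8654 of 8674 genes, with 0.231% of genes lower. Bcl2l11 had a difference of -1.60, with 1% of genes lower, and -0.92 by its NM_009754 probe. Bik differed the other way, by log2 1.37, which 2.81% of genes exceeded. Bid, at 0.30, and Bad, at -0.13, differed little between the lines. By count, 3 of 6 members were at least 2-fold lower in the difference, where 4.82% of genes analysed were, and 1 of 6 at least 2-fold higher, where 7.1% were. One of these 3 is Bak1, at -1.24, a value that rests on 2 arrays on which it was not detected. The median of the members was -0.68, against -0.00 over all genes. It was -0.13 with only genes detected on all 4 arrays, which leaves out Bak1. With the authors' processed values it was -0.29, and without background correction -0.33. The difference was not tested, since no group has a second array.

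As a scale for these differences, 3502 genes had at least 2 detected probes. The median absolute deviation between 2 probes of a gene, scaled to an SD for 1 probe, was log2 0.31. For the DOX effect the same spread was 0.33 in the control cells and 0.32 in the miR-17-92 cells. This is a spread between probes on the same 4 arrays, not between cultures. The differences of Bbc3, Bcl2l11 and Bik exceed it, and those of Bid, which at 0.30 lies just under it, and Bad do not. It is a spread over all these genes, and that of 1 gene can be wider. The Bcl2l11 probes detected on all 4 arrays gave differences of -1.60 and -0.92.

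**Figure D3:**
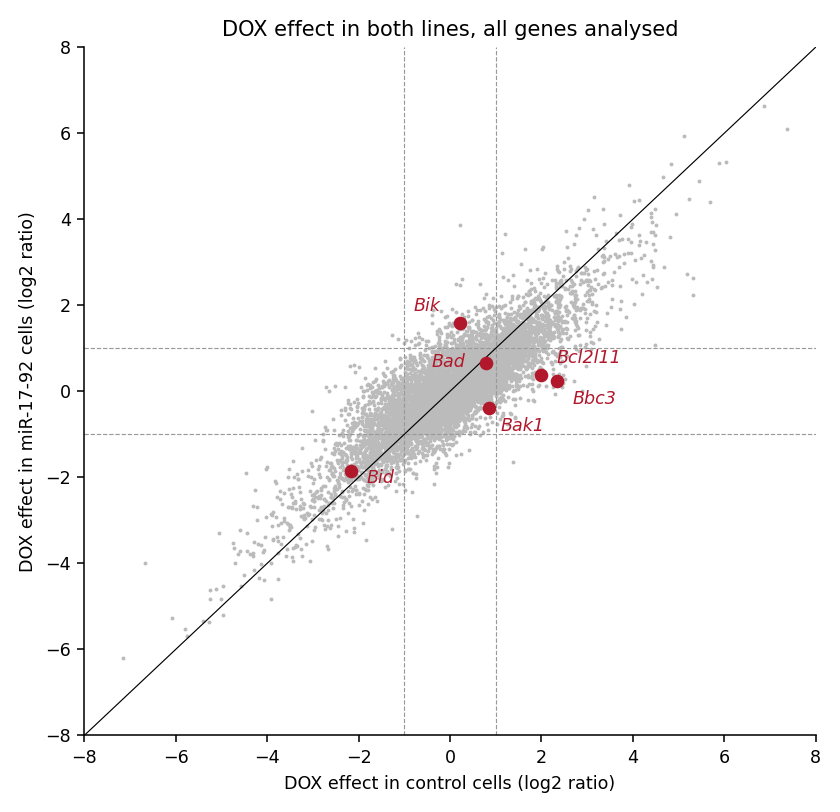
DOX effect (log2 ratio) in the control cells on the horizontal axis against that in the miR-17-92 cells on the vertical axis, for all 8674 genes analysed (grey) and the 6 members (red); dashed lines mark 2-fold and the solid line equality. Bcl2l11 and Bbc3 lie below the line of equality, Bik above it, and Bid and Bad close to it.

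With MYC on, no member differed by 2-fold between the miR-17-92 cells and the control cells. Bcl2l11 was 1.35-fold lower in the miR-17-92 cells by its brightest probe (log2 -0.43, with 7.91% of genes lower) and 1.73-fold lower by its NM_009754 probe (log2 -0.79). Bbc3 stood at log2 0.13, Bik at -0.07, Bid at -0.06 and Bad at -0.01. Bak1 stood at 0.78 but was undetected in the control cells, so no fold is given. The 0 of 6 members past 2-fold compare with 1.18% of all genes higher and 1.04% lower, and the median of the members was log2 -0.04. The spread estimated in the same way for 1 probe was 0.19 in this comparison.

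With MYC off, Bcl2l11 and Bbc3 were lower in the miR-17-92 cells than in the control cells and Bik was higher. Bcl2l11 was 4.10-fold lower (log2 -2.03), with 0.288% of genes lower, by its brightest probe, 3.26-fold lower by the NM_009754 probe and 1.26-fold lower by the dim NM_207680 probe. Bbc3 was 3.89-fold lower (log2 -1.96), with 0.369% of genes lower. Its dim probe that was detected only in the control cells with DOX was at least 1.36-fold lower. That detection fixed the direction, so this is not a second reading. Bik was 2.45-fold higher (log2 1.29), which 3.24% of genes exceeded. Bid, at 0.23, and Bad, at -0.14, stayed close to 0, and Bak1, undetected in the miR-17-92 cells, was at least 1.30-fold lower. Thus 2 of 6 members were at least 2-fold lower, where 4.83% of genes analysed were, and 1 of 6 higher, where 6.36% were. This comparison uses the same 2 DOX arrays as the DOX effects, so its values are not a separate reading of them.

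The order of the arrays differed from gene to gene. For Bcl2l11 it was control with DOX, control without DOX, miR-17-92 with DOX and miR-17-92 without DOX, and the middle pair differed by log2 0.05. For Bbc3 it was control with DOX, miR-17-92 with DOX, miR-17-92 without DOX and control without DOX, with the last 3 inside log2 0.38. For Bid both arrays without DOX came first. In this respect Bcl2l11 and Bbc3 shared 1 high array, and Bik had the other DOX array high. Bid and Bad were sorted by DOX, and so equally by slide.

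The promoter windows of Bcl2l11 and Bbc3 are shown because both genes rose on the same array, and that of Bid because it fell on both DOX arrays. The windows are those of RefSeq, build GRCm38.p6, from 250 bases before to 50 after a transcript start. They were searched on both strands for the forkhead core GTAAACA and the MYC E-box CACGTG, motifs chosen after the values of these genes were seen. Matches are in capitals, and a match is a description of these letters, not a binding site.
Bcl2l11, chr2:128125788-128126087, plus strand: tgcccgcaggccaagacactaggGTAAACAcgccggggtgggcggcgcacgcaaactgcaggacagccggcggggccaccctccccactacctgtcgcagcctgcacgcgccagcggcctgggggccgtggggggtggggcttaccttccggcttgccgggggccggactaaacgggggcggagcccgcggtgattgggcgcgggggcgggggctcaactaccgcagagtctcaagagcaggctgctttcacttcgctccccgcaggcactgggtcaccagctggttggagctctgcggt
Bbc3, chr7:16310011-16310310, plus strand: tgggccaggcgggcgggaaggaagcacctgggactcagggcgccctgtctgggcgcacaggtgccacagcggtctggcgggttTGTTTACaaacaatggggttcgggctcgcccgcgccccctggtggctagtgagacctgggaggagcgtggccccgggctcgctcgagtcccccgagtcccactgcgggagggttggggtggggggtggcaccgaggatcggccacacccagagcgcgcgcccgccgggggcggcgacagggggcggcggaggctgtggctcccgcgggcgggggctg
Bid, chr6:120916775-120917074, minus strand: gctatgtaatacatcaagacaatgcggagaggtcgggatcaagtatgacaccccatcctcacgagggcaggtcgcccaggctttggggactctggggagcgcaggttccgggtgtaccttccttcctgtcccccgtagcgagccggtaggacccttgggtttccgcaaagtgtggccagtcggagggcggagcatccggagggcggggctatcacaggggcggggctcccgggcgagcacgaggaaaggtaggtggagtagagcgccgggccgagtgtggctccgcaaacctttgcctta
The Bcl2l11 window holds the forkhead core beginning 227 bases before the start, and the Bbc3 window holds it on the opposite strand, beginning 167 bases before the start. The second Bcl2l11 window and the other 2 of 3 Bbc3 windows lack it. The E-box occurs in 1 other Bbc3 window, chr7:16310181-16310480, beginning 64 bases before its start, and in the Bax window, and the Bid window holds neither motif. The motifs did not occur together in any of the member windows searched. Of 13 windows searched, of 7 members, 2 held the forkhead core and 2 the E-box. No window of Pmaip1 or Bik was among them, and member windows on 1 chromosome were left out of the search. Of all 32851 promoter windows in the table, 3.65% held the forkhead core and 7.15% the E-box.

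Other genes of the pathway place these values in context. Among pro-survival genes, whose proteins the BH3-only proteins bind, 3 of 4 analysed had a measured ratio past 2-fold higher with DOX in both lines and none lower, where 19.9% of all genes analysed were higher in the control cells and 14.8% in the miR-17-92 cells. Mcl1, whose protein is the partner of NOXA and BIM, rose by log2 1.98 in the control line and 1.25 in the miR-17-92 line. Bcl2l1, the gene of BCL-XL, rose by 1.61 and 1.84. The count also holds Bcl2, undetected without DOX in either line, for which no fold is given in the control cells and which rose at least 1.52-fold in the miR-17-92 cells. Bcl2a1b, which has near-identical copies in the mouse genome, stood at log2 -0.51 in the control cells, and its drop in the miR-17-92 cells was at least 1.41-fold. Bcl2l11 and its pro-survival binding partner Mcl1 were thus both past 2-fold higher in the DOX-treated control cells.

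Of 2 other BH3-domain genes analysed, of 6 listed, Bnip3l, which encodes a mitophagy receptor, rose by log2 1.18 and 1.23 with DOX and Becn1, the gene of the autophagy protein Beclin 1, stood at 0.15 and -0.09. Bok, Hrk, Bnip3 and Bcl2l14 were not detected on any array.

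For apoptosome and caspase genes, 3 of 6 analysed passed 2-fold upward with DOX in the control cells and 1 downward. In the miR-17-92 cells 1 and 1 did. Over all genes analysed, 19.9% were higher and 18% lower in the control cells, and 14.8% and 12.8% in the miR-17-92 cells. Casp6, an executioner caspase, rose by log2 2.37 in the control cells and 1.63 in the miR-17-92 cells. Casp8, the caspase that cleaves BID, rose by 1.57 in the control cells and stood at 0.67 in the miR-17-92 cells, and Apaf1, the scaffold of the apoptosome, rose by 1.28 and stood at 0.93. Cycs, the gene of cytochrome c, which has many processed pseudogene copies, had log2 ratios of -1.84 and -1.16. The genes of a death-receptor caspase and of its substrate Bid thus moved in opposite directions in the control cells.

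Of 10 genes of mitochondrial release factors, channels and inhibitors of apoptosis, 2 passed 2-fold upward and 1 downward with DOX in the control cells, against 0 and 1 in the miR-17-92 cells. Set against 19.9% higher and 18% lower over all genes in the control cells, and 14.8% and 12.8% in the miR-17-92 cells, these counts are near or below the background. Htra2, a mitochondrial protease that counters inhibitors of apoptosis, fell past 2-fold in both lines, with log2 ratios of -2.83 and -2.29. Birc2, the gene of cIAP1, rose by 1.69 in the control cells and stood at 0.95 in the miR-17-92 cells. Birc3, the gene of cIAP2, counted by its measured ratio, exceeded its level without DOX by at least 1.81-fold in the control cells and stood at 0.98 in the miR-17-92 cells. Aifm1, the gene of apoptosis-inducing factor, stood at -0.92 and -0.69.

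Among 14 genes of proteins that bind or modify BH3-only proteins, 1 was higher and 3 lower past 2-fold with DOX in each line, and the medians were log2 -0.12 and -0.01. The shares over all genes were 19.9% higher and 18% lower in the control cells and 14.8% and 12.8% in the miR-17-92 cells. Trim2, a ubiquitin ligase reported to act on BIM, stood at -2.20 and -2.09. Pim3, a kinase that phosphorylates BAD, stood at -1.63 and -1.61. Pim1, a related kinase, is the 1 counted as higher in each line by its measured ratio: it was undetected without DOX, has no fold in the control cells and rose at least 1.17-fold in the miR-17-92 cells. Mtch2, which encodes the mitochondrial receptor of truncated BID, stood at -1.28 in the control cells and -0.97 in the miR-17-92 cells, the same direction as Bid.

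Of 12 genes of transcription factors and regulators known to act on BH3-only genes, 7 passed 2-fold upward and 2 downward with DOX in the control cells, and 5 upward and 0 downward in the miR-17-92 cells. Over all genes 19.9% passed 2-fold upward and 18% downward in the control cells, and 14.8% and 12.8% in the miR-17-92 cells. The median log2 ratios of the regulators were 1.41 and 0.77, beside 0.06 and 0.09 over all genes. Egr1, an immediate-early factor, rose by 3.91 and 3.21, and Ddit3, the gene of the stress factor CHOP, by 2.65 and 2.09. E2f1, a factor of the cell cycle that can induce BH3-only genes, stood at -1.93 in the control cells and -0.38 in the miR-17-92 cells. Cebpb, a leucine zipper factor gene, stood at -1.78 and -0.74. Foxo1 and Foxo3, named after their values were seen because of the forkhead motif above, stood at 1.78 and 1.27 in the control cells and at 1.70 and 0.53 in the miR-17-92 cells.

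**Figure D4:**
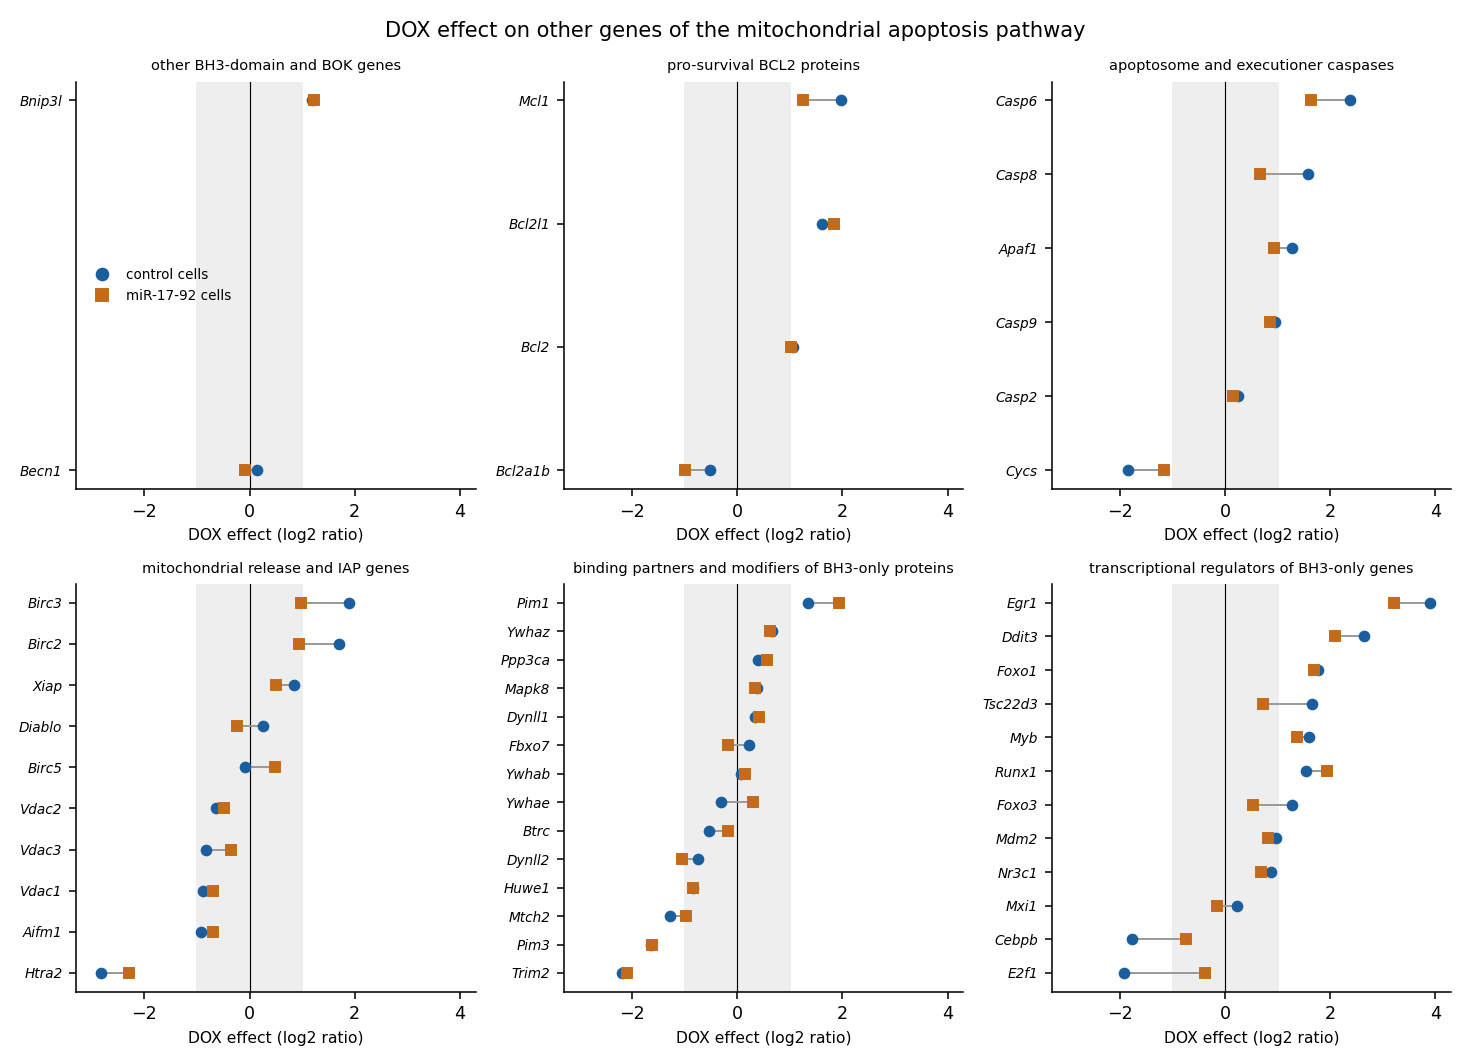
DOX effect (log2 ratio, horizontal axis) on every analysed gene of 6 lists of the mitochondrial apoptosis pathway, in the control cells (blue circles) and the miR-17-92 cells (orange squares), 1 array against 1 array; the grey band is the range within 2-fold. Mcl1, Casp6 and Egr1 lie past 2-fold higher in both lines and Htra2 and Cycs past 2-fold lower; some genes, such as Bcl2, Pim1 and Birc3, were undetected on an array without DOX.

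Bcl2l11 was also set beside the other 4 of the 5 targets that the study named for miR-17-92. That list may have been chosen on these samples, so its direction is not independent evidence. With DOX all 5 passed 2-fold upward in the control cells, where their median was log2 2.09 and 19.9% of all genes did so, and 3 of 5 in the miR-17-92 cells, where it was 1.16 and 14.8% did. Hbp1, a transcriptional repressor, had a difference of -1.82 between the lines and Bcl2l11 one of -1.60, and these 2 passed 2-fold, as 4.82% of all genes did. Btg1, an antiproliferative gene, rose by 4.13 and 3.63 and Kmt5b, a histone methyltransferase gene, by 2.09 and 1.16. Without DOX the ratio of miR-17-92 to control cells was below 0 for all 5, with a median of -0.25, and none passed 2-fold. Bbc3 is not among those targets, and its difference of -2.09 was beyond that of each of the 5.

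The choice of probe and of scaling moved these ratios by different amounts. When the detected probes of a gene were averaged, Bcl2l11 kept log2 1.43 with DOX in the control cells and Bbc3 stood at 0.93, under 2-fold, since 2 of its 3 probes lay near the detection limit. In the miR-17-92 cells the DOX effect of Bbc3 then changed sign, from 0.25 to -0.54, and the difference between the lines became -0.91 for Bcl2l11 and -1.46 for Bbc3. Median scaling moved the median of all genes with DOX from 0.06 to 0.24 in the control cells, which took Bad to 1.03 and Bak1 to 1.18 there. Across the alternatives the DOX effect of Bid ranged from -2.16 to -1.95 in the control cells and from -1.86 to -1.69 in the miR-17-92 cells, and the difference of Bik from 1.08 to 1.37.

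**Figure D5:**
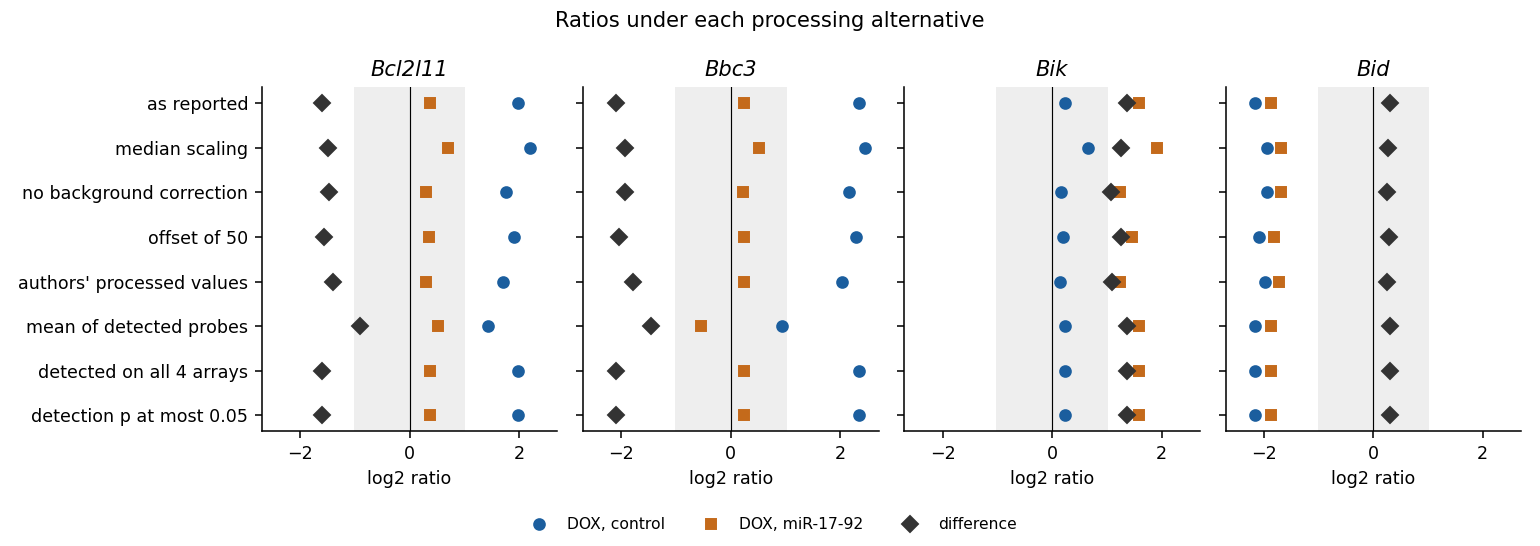
Log2 ratios of Bcl2l11, Bbc3, Bik and Bid (horizontal axis) under the reported processing and 7 alternatives (vertical axis): DOX effect in the control cells (blue circles), DOX effect in the miR-17-92 cells (orange squares) and their difference (black diamonds); the grey band is the range within 2-fold. With the mean of detected probes, the difference of Bcl2l11 is -0.91 and the DOX effect of Bbc3 in the control cells 0.93, inside the band.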

How the data were processed

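Biotin-labelled RNA from 4 cultures was read on Illumina bead arrays, per the labels' protocols, and the submitters' processing notes name GenomeStudio (version not given in the sources used here). The deposited table holds a raw mean intensity and a detection p-value for every probe and array, per the file headers. Detection columns carry slide positions, and each was linked to the array whose signal it never rose with (0 breaks, against at least 16605 for other arrays). The authors' processed intensity table kept each array's probe order with r = 1, so it is a linear, uncentred rescaling of each array, of unstated method, and served as an alternative; its medians were 146.9, 143.2, 100.9 and 104.6 (control and miR-17-92 without DOX, then with DOX).

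Background was removed with limma 3.58.1 (R 4.3.3), using the normal-exponential model with parameters inferred from detection p-values. With an offset of 16, the 4 arrays were then quantile normalized together on the log2 scale, which makes each ratio relative to all genes. Of the probes, 34885 had 1 gene in the platform annotation and 10378 none. Each gene was represented by its brightest probe detected at p of at most 0.01. A gene undetected on its dim side is given as a lower bound against the lowest detected signal of that array, and counts and medians use its measured ratio. The steps were tested on simulated data.

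Groups followed the labels, with 1 array each, so no test was run. All members were named, up to 4 genes of each other list with the largest ratio in the control cells, and the 3 genes nearest to Bcl2l11, Bbc3 and Bid in centred levels. The members and the lists were chosen with earlier results of these data known. Alternatives changed the scaling, background correction, offset, table, probe rule and detection filter.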

Additional observations from a re-analysis of the deposited data

Results flagged for a closer look

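Bak1, the gene of the pore former BAK, had measured DOX ratios of opposite sign in the 2 lines. They were log2 0.85 in the control cells, where no fold is given, and -0.39 in the miR-17-92 cells, a difference of -1.24. Across the alternatives the ratio in the control cells ranged from 0.06 with the authors' processed values to 1.18 with median scaling. That difference was not tested. Bak1 was undetected on 2 arrays, control without DOX and miR-17-92 with DOX, and its 4 raw intensities lay between 157.2 and 212.1. Without background correction the difference was -0.55, with an offset of 50 it was -0.85 and with the authors' processed values -0.48.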

How the results depend on the processing

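Each DOX effect was taken within 1 line, and no pairing of replicates was possible because each group has 1 array. Of 205 single-gene ratios recomputed under 7 alternatives, 190 kept their direction, their side of 2-fold and their size within the spread used, 8 moved, 2 passed 2-fold and 5 no longer did. Some of the 190 could not change. Both changes of the detection filter left the brightest probe of each gene they kept as it was. Bik, Bid, Bad and Bak1 each had only 1 detected probe to average. In 1 of the 8 the sign changed: Bbc3 with DOX in the miR-17-92 cells was -0.54 with the mean of detected probes in place of 0.25. The 2 were Bad (1.03) and Bak1 (1.18) with DOX in the control cells under median scaling, which made the members at least 2-fold higher there 4 in place of 2. With the mean of detected probes that count was 1, Bbc3 fell to 0.93 and the difference of Bcl2l11 to -0.91. The other losses were those of the Bak1 difference. The remaining counts of members stayed within 1.5 times. Over all genes analysed, the authors' processed values gave 946 higher and 1414 lower with DOX in the control cells, a share of 40.1% higher in place of 52.4%, and 661 and 942 in the miR-17-92 cells (41.2% in place of 53.6%). Median scaling gave shares of 62.2% and 66.3%. In the difference of DOX effects the authors' values gave 318 higher and 126 lower in place of 616 and 418, and no background correction gave 295 and 168. In the miR-17-92 effect without DOX these settings gave 6 and 3, and 9 and 6, in place of 102 and 90. With DOX they gave 336 and 166, and 293 and 204, in place of 552 and 419. The causes were not tested. Signal near background limits Bak1, Pmaip1, Bmf and the dim probes of Bcl2l11 and Bbc3.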

Other observations

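The genes whose levels over the 4 arrays most resembled each member were found by the Euclidean distance between log2 levels centred on their mean. For Bcl2l11 the nearest was Cldn4, a claudin gene, at a distance of log2 0.16, with DOX effects of 1.93 in the control cells and 0.46 in the miR-17-92 cells, detected on all 4 arrays. Degs2 (0.24) and Pls1 (0.24) followed, each detected on 1 array. For Bbc3 the nearest were Lpin1 (0.15), Degs2 (0.22) and Acoxl (0.30), each detected on 1 array, so their levels elsewhere lie at background. For Bid the nearest were Ddx51 (0.020), an RNA helicase gene, Zfp428 (0.070) and Retsat (0.071), all detected on 4 arrays, with DOX effects from -2.19 to -2.07 in the control cells and from -1.96 to -1.84 in the miR-17-92 cells. With 4 arrays many genes can lie this close, and likeness over them is a description only.

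The probe of Mir17hg, the primary transcript of the endogenous cluster, read log2 10.34 and 10.21 without DOX (control cells first) and 6.71 and 7.26 with DOX. Both arrays with DOX lay below both arrays without it.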
